A study of Mus musculus with 25 samples.

Results

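The 10 genes described here encode enzymes and regulators of glycolysis in the mouse retina: Hk1, Hk2, Pfkl, Pfkm, Pfkp, Pfkfb3, Aldoc, Ldha, Ldhb and Pdk1. They were chosen by symbol from the 18440 genes listed in all 5 expression tables, and all 10 had at least 1 FPKM (a fragment count corrected for transcript length and library depth) in at least 5 of 25 libraries, as did 13117 genes in all. The retinas came from wild-type C57BL/6J mice, with intravitreal injection into both eyes at postnatal day 30. Each injection held 1 µL of AA147 (an activator of the endoplasmic reticulum stress sensor ATF6), Ceapin-A7 (an inhibitor of ATF6) or tunicamycin (an inhibitor of protein N-glycosylation, used as the positive control), each at 10 µM, or of vehicle. All groups therefore shared the injection itself and a saline carrier with 0.05 to 0.1% dimethyl sulfoxide, although the treatment label of the vehicle libraries reads PBS. There were 5 libraries in each of 5 groups. AA147 was set against vehicle set 1, whose table has the same gene list, and Ceapin-A7 and tunicamycin were both set against vehicle set 2, so these comparisons share their control libraries. The column names give 24 h after injection for each compound library but no time for vehicle, so time and compound cannot be told apart in any comparison with vehicle. The labels do not say whether the libraries came from separate animals. Within the AA147, Ceapin-A7 and vehicle set 2 groups the Y-linked gene Ddx3y was at 0.00 FPKM in some libraries and at 10.93 or more in others. These groups therefore held more than 1 animal each. How many animals lie behind each group is not known, so p-values measure the spread between these libraries, which may in part be technical.

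Glycolysis splits glucose into pyruvate. Hexokinases (Hk1, Hk2) trap glucose in the cell, phosphofructokinase (Pfkl, Pfkm, Pfkp) makes the committed step under the control of fructose 2,6-bisphosphate from Pfkfb3, and aldolase (Aldoc) splits the sugar. Lactate dehydrogenase (Ldha, Ldhb) interconverts pyruvate and lactate, and Pdk1 phosphorylates pyruvate dehydrogenase and so holds pyruvate back from the mitochondria. Photoreceptors are known for turning most of their glucose into lactate even with oxygen present, and several of these genes, Ldha and Pdk1 among them, are known targets of hypoxia-inducible factors.

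The libraries listed between 12582 and 12870 genes at 1 FPKM or more. Depth, which the tables do not state, was estimated from the steps between low FPKM values at 15.3 to 24.9 M fragments a library (median 23.4), a rough figure. At that median depth the lowest value of any of the 10 genes, 8.01 FPKM of Pfkfb3, corresponds to about 853 fragments on its longest annotated transcript, 339 on the median one and 22.3 on the shortest, and which was measured is not known. Summed over 12 rod markers, FPKM stood between 18551 and 29671, so every library carried the markers of the main retinal cell type. In the tunicamycin libraries the positive control genes Sdf2l1, Hspa5, Dnajb9 and Ddit3, all induced by endoplasmic reticulum stress, rose against vehicle set 2 (4 of 4), with log2 changes from 1.32 to 2.75.

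Transcript levels of the 10 genes spanned almost 2 orders of magnitude in vehicle retinas. Over the 10 vehicle libraries, Ldha had the highest mean, 874.6 FPKM, which placed it at rank 24 of 13117 genes. Hk1 followed with 316.8 FPKM (rank 162), then Aldoc with 212.1 FPKM (rank 274). Pfkl with 150.1 FPKM, Pfkp with 148.2 FPKM and Ldhb with 145.8 FPKM lay close together, and their library ranges overlapped in both vehicle sets. Hk2 with 80.9 FPKM and Pfkm with 79.1 FPKM also overlapped. The 2 regulators were far lower, Pdk1 at 15.0 FPKM (rank 5688) and Pfkfb3 at 10.1 FPKM (rank 7429). In every group Ldha was the highest and Pfkfb3 the lowest by mean, with no overlap between Ldha and the next gene, Hk1. Within each step the vehicle retinas therefore listed more Hk1 than Hk2 and more Ldha than Ldhb, while the liver-type (Pfkl) and platelet-type (Pfkp) phosphofructokinases were both above the muscle-type (Pfkm).

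**Figure D1:**
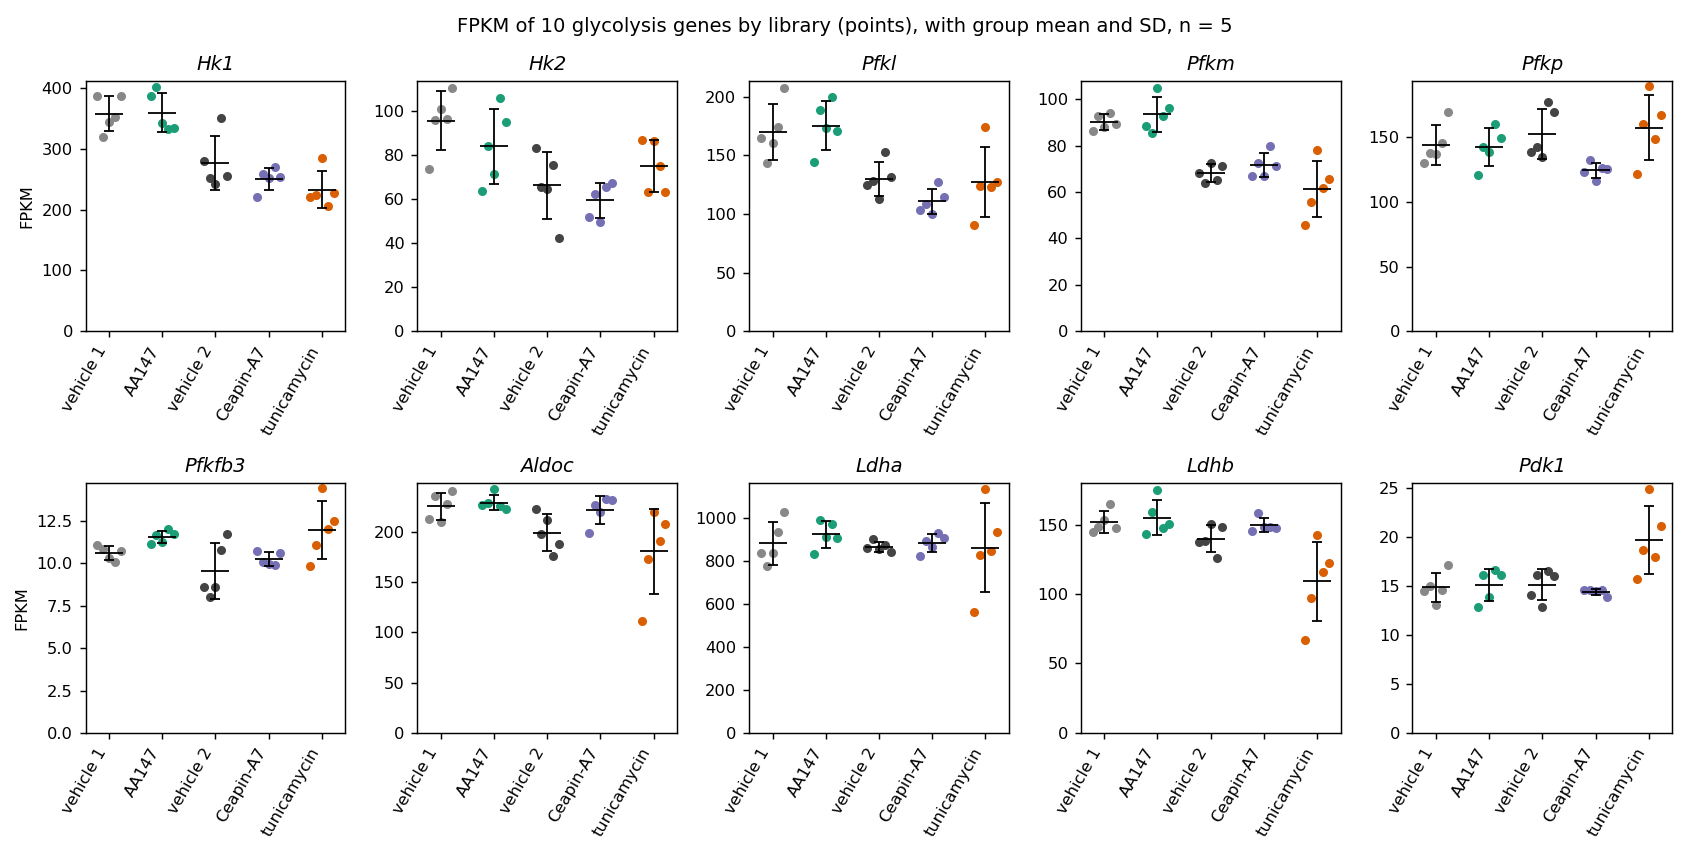
FPKM of each of the 10 genes (vertical axes, linear from 0) in every library of the 5 groups; points are libraries, the bar and whiskers are the mean and SD of 5. Pdk1 in the tunicamycin group reached 24.97 FPKM while the other groups stayed at or below 17.14, and tunicamycin library 1 was the lowest of its group for 8 of the 10 genes.

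Upstream sequence is shown for the genes that passed the test against vehicle with tunicamycin, Pfkfb3, Pdk1 and Ldhb, together with Ldha as the counterpart of Ldhb. RefSeq start sites on GRCm38.p6 were available for all 10 genes (18 windows of 250 bases ending at a start site), whereas the submitters' processing notes name GRCm39 for the expression tables. Which start site was used in these retinas was not measured. Capitals mark ACGTG on either strand (CACGT when read on the other), a form of the core that hypoxia-inducible factors bind. The alternative form GCGTG was neither searched nor marked. ACGTG is also part of the longer E-box CACGTG, which matches on both strands at once. The windows shown were chr7:46845554-46845803 (plus strand) for Ldha, chr6:142507958-142508207 (minus) for Ldhb, chr2:71872974-71873223 (plus) for Pdk1, and chr2:11553930-11554179 and chr2:11502091-11502340 (both minus) for Pfkfb3, each lying upstream of its own start site. Start site 2 of Pfkfb3 lies downstream of start site 1 on that strand. The windows at start site 2 of Ldha and of Pdk1 held no ACGTG and are not shown.
Ldha, start site 1: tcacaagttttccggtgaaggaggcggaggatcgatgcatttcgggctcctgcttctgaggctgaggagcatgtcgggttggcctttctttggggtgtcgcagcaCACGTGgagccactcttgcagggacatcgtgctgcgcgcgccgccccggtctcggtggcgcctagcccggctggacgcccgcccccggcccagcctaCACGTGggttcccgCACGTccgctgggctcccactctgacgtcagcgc
Ldhb, start site 1: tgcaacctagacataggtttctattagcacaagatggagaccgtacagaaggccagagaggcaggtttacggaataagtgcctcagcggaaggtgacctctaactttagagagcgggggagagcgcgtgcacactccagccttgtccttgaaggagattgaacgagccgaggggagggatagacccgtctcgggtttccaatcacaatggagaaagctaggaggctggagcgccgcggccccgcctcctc
Pdk1, start site 1: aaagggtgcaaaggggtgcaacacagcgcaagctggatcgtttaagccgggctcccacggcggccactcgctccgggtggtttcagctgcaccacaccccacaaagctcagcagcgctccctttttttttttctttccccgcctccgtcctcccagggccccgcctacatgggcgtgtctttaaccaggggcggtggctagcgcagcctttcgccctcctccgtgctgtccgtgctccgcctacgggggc
Pfkfb3, start site 1: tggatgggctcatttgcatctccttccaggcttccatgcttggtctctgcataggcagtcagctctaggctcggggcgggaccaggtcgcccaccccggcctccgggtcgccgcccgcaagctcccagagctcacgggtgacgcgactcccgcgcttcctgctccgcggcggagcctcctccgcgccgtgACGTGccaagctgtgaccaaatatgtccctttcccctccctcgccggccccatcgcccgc
Pfkfb3, start site 2: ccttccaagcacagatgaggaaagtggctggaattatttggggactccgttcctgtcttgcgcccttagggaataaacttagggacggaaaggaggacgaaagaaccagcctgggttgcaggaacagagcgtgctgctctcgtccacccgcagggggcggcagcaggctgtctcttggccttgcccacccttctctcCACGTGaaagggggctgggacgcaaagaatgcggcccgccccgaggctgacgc
ACGTG occurred in 4 of the 10 genes (Hk2, Pfkm, Pfkfb3 and Ldha), beside 18.5% of 27025 genes with such windows. A gene counted if any of its windows matched, so genes with more start sites are favoured. The 10 genes have 18 windows and the 27025 genes 32851, of which 16.6% held ACGTG. At start site 1 of Ldha it matched 5 times, at positions -145, -144, -48, -47 and -34 from the start site, where neighbouring positions are the 2 strands of a CACGTG. Pfkfb3 had ACGTG at -60 of start site 1 and at -53 and -52 of start site 2. The windows of Ldhb and Pdk1 did not hold these letters. TTGCATCA, an element bound by ATF4, was in none of the 10 genes and in 0.918% of all genes, and the endoplasmic reticulum stress element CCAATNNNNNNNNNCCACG was in none of the 10 and in 0.13% of all genes, both searched on both strands. These matches describe letters only.

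Tunicamycin changed 3 of the 10 genes against vehicle set 2: Pdk1 and Pfkfb3 rose and Ldhb fell. By limma over all 13117 genes, 2 of 10 were called higher, beside 5.89% of all genes, and 1 of 10 lower, beside 2.81%. Under other scalings the split over all genes moved from 773 higher and 368 lower to 562 and 552 (median-ratio scaling) or 573 and 580 (quantile normalization), and the 3 calls among the 10 genes held under both. The median difference of the 10 genes was -0.05 on the log2(FPKM + 1) scale and that of all genes 0.01.

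Pdk1, the kinase that inhibits pyruvate dehydrogenase, stood at 15.77, 18.73, 24.97, 17.96 and 21.13 FPKM in tunicamycin libraries 1 to 5 and at 14.14, 16.15, 12.85, 16.52 and 16.03 FPKM in vehicle set 2. Only tunicamycin library 1 lay within the vehicle range. Its mean was 19.7 ± 3.51 FPKM against 15.1 ± 1.58 FPKM (SD, n = 5 each), and the log2 change was 0.35 ± 0.093 (SE; limma adjusted p = 0.0209), or 1.27-fold. Without vehicle library 1 or 3 the adjusted p was 0.0519 or 0.0611.

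Pfkfb3, which makes the activator of phosphofructokinase, was at 9.84, 11.09, 14.42, 12.01 and 12.47 FPKM with tunicamycin and at 8.59, 8.01, 8.60, 10.79 and 11.75 FPKM in vehicle set 2. The groups overlapped: vehicle libraries 4 and 5 reached into the tunicamycin range, and tunicamycin library 1 lay below both. The log2 change was 0.30 ± 0.081 (SE; limma adjusted p = 0.0226), with means of 11.97 ± 1.70 and 9.55 ± 1.63 FPKM (SD, n = 5 each). Leaving out vehicle library 1, 2 or 3 raised the adjusted p to 0.0618, 0.0548 and 0.0588.

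Ldhb, the heart-type subunit, was at 66.99, 97.44, 142.72, 116.19 and 122.13 FPKM with tunicamycin and at 137.23, 137.80, 150.06, 126.00 and 148.43 FPKM in vehicle set 2. Tunicamycin libraries 1, 2, 4 and 5 lay below every vehicle library, and library 3 lay inside the vehicle range. Its log2 change was -0.40 ± 0.119 (SE; limma adjusted p = 0.0383), with means of 109 ± 28.6 and 140 ± 9.76 FPKM (SD, n = 5 each). This call was the least stable of the 3, lost in 12 of 22 alternative analyses, among them those without tunicamycin library 1 (log2 change -0.23, adjusted p = 0.0873) or 2 (adjusted p = 0.0787), those without vehicle library 1, 2, 3 or 5 (adjusted p from 0.0503 to 0.0808) and that with no filter on low values (adjusted p = 0.052).

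The sexes differed between these groups: Ddx3y, a Y-linked gene, was at 1 FPKM or more in 5 of 5 tunicamycin libraries and in 1 of 5 of vehicle set 2 (library 5). In the AA147 and the Ceapin-A7 group alike, Ddx3y was at 0.00 FPKM in libraries 4 and 5 and above 1 FPKM in libraries 1 to 3. With Ddx3y as a term in the fit, the log2 changes with tunicamycin were 0.38 for Pdk1 (adjusted p = 0.0703), 0.25 for Pfkfb3 (adjusted p = 0.16) and -0.45 for Ldhb (adjusted p = 0.0849). None of the 3 was called. Hk2 then was, with a log2 change of 0.57 and an adjusted p of 0.0295. In a fit on the 2 compared groups alone, which estimates the spread from 10 libraries and not 25, the changes were the same in size and the adjusted p values were 0.19 for Pdk1, 0.259 for Pfkfb3 and 0.29 for Ldhb.

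The remaining 7 genes did not pass the test against vehicle set 2. Hk1 had a log2 difference of -0.24 (95% confidence interval -0.44 to -0.05, adjusted p = 0.109), from 232.5 FPKM with tunicamycin and 275.9 FPKM with vehicle, and passed without tunicamycin library 3 (-0.32, adjusted p = 0.0195). Pfkm was at 61.3 against 68.2 FPKM, a log2 difference of -0.17 (interval -0.36 to 0.01), and likewise passed without that library (-0.26, adjusted p = 0.0257). For Hk2 the difference was 0.20 (interval -0.13 to 0.52), and for Aldoc -0.18 (interval -0.41 to 0.06). Ldha was at 561.29, 828.46, 1136.33, 848.23 and 935.34 FPKM with tunicamycin, on both sides of the 841.80 to 902.41 FPKM of vehicle set 2, and its difference of -0.04 had an interval of -0.28 to 0.19. Pfkl (-0.05, interval -0.31 to 0.21) and Pfkp (0.04, interval -0.17 to 0.24) were not called either. Within the tunicamycin group, library 1 held the lowest value of 8 genes and library 3 the highest of 9.

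**Figure D2:**
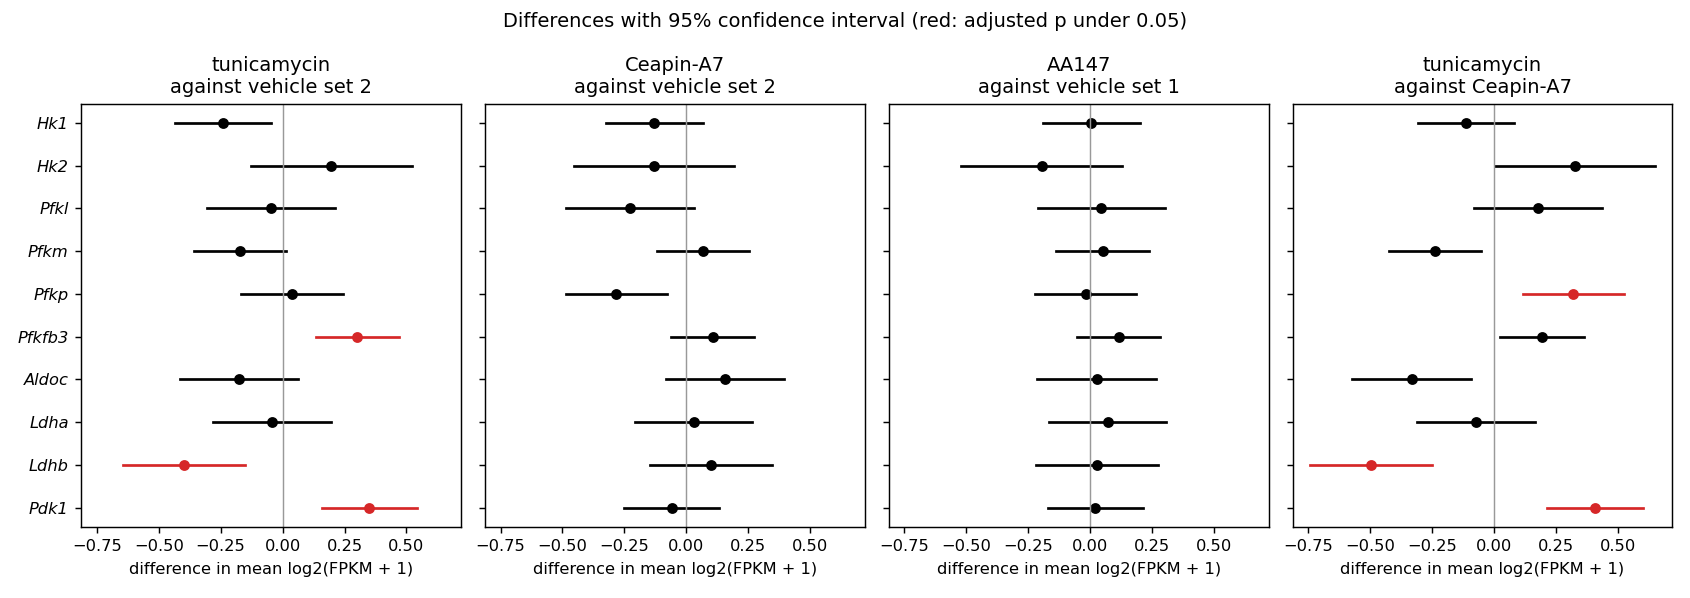
Differences in mean log2(FPKM + 1) (horizontal axis) of the 10 genes in 4 comparisons, with 95% confidence intervals; red marks an adjusted p under 0.05. Pdk1, Pfkfb3 and Ldhb are red for tunicamycin against vehicle set 2, Pdk1, Ldhb and Pfkp for tunicamycin against Ceapin-A7, and no gene is red for Ceapin-A7 or AA147 against vehicle.

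Set against the Ceapin-A7 libraries, which carry the same 24 h, the same tunicamycin libraries differed in Pdk1 and Ldhb, and also in Pfkp. Among the 10 genes 2 were higher, beside 8.83% of all genes, and 1 lower, beside 4.48% (912 higher and 796 lower genes with median-ratio scaling, 826 and 724 with quantile normalization, in place of 1158 and 588). Pdk1 was at 14.62, 14.62, 14.46, 14.59 and 13.86 FPKM with Ceapin-A7, all below every tunicamycin library. The log2 difference was 0.41 ± 0.093 (SE; limma adjusted p = 0.00609), and it was called in all 19 alternatives run for this comparison, that with Ddx3y as a term included. Ldhb was at 145.68, 158.29, 148.23, 148.41 and 147.82 FPKM with Ceapin-A7, all above every tunicamycin library. Its log2 difference was -0.50 ± 0.119 (SE; limma adjusted p = 0.00854), lost in 1 of 19 alternatives, the fit on the 2 groups alone (adjusted p = 0.0916).

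Pfkp, the platelet-type phosphofructokinase, was at 121.34, 160.12, 189.56, 148.17 and 166.72 FPKM with tunicamycin and at 123.13, 131.97, 115.89, 126.42 and 125.04 FPKM with Ceapin-A7. Tunicamycin libraries 2 to 5 lay above the Ceapin-A7 range and library 1 within it. The log2 difference of 0.32 ± 0.099 (SE; limma adjusted p = 0.0345) was lost in 8 of 19 alternatives, among them the fits without Ceapin-A7 library 1, 3, 4 or 5 (adjusted p from 0.0571 to 0.0774) and without tunicamycin library 2, 3 or 5 (0.0627 to 0.0676). In the main fit this gap lay mostly on the Ceapin-A7 side. Against vehicle set 2, Pfkp differed by 0.04 with tunicamycin and by -0.28 with Ceapin-A7, neither called. Vehicle libraries 4 and 5 were at 177.31 and 169.24 FPKM, and libraries 1 to 3 at 134.95 to 142.40 FPKM. Over the alternatives the difference rose to as much as 0.25 with tunicamycin and shrank to as little as -0.15 with Ceapin-A7. The side of the gap thus depends on the analysis. With tunicamycin against Ceapin-A7, Aldoc was lower by 0.33 with an adjusted p of 0.0586 and Pfkm by 0.24 with an adjusted p of 0.0795, short of the threshold. Aldoc passed without tunicamycin library 3 or 5 and Pfkm without library 3, and Pfkfb3 (0.19, adjusted p = 0.109) passed without library 1. Hk2 (0.33, limma adjusted p = 0.162) passed with Ddx3y as a term in the fit (0.51, limma adjusted p = 0.0118).

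The balance of paralogs within a step is described here as the share of summed FPKM, which compares genes per transcript length, with no test. Ldhb made up 10.66, 10.52, 11.16, 12.05 and 11.55% of Ldha plus Ldhb in tunicamycin libraries 1 to 5. In vehicle set 2 the share was 13.77, 13.25, 14.93, 12.61 and 14.99%. The remaining groups lay between 12.57 and 16.10%, so that each tunicamycin library was below each of the other 20 libraries. Unlike the FPKM of Ldhb, this share was not extreme in tunicamycin library 1. Pfkm made up 16.4 to 18.5% of the 3 phosphofructokinases with tunicamycin, 22.8 to 23.9% with Ceapin-A7 and 16.5 to 22.6% in vehicle set 2. Hk2 accounted for 21.8 to 28.2% of hexokinase FPKM with tunicamycin, 16.5 to 21.0% with Ceapin-A7 and 14.3 to 22.9% in vehicle set 2, where the last range overlapped the first. Lactate dehydrogenase FPKM summed to 971 ± 236 FPKM with tunicamycin and 1006 ± 19.7 FPKM in vehicle set 2 (SD, n = 5 each).

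**Figure D3:**
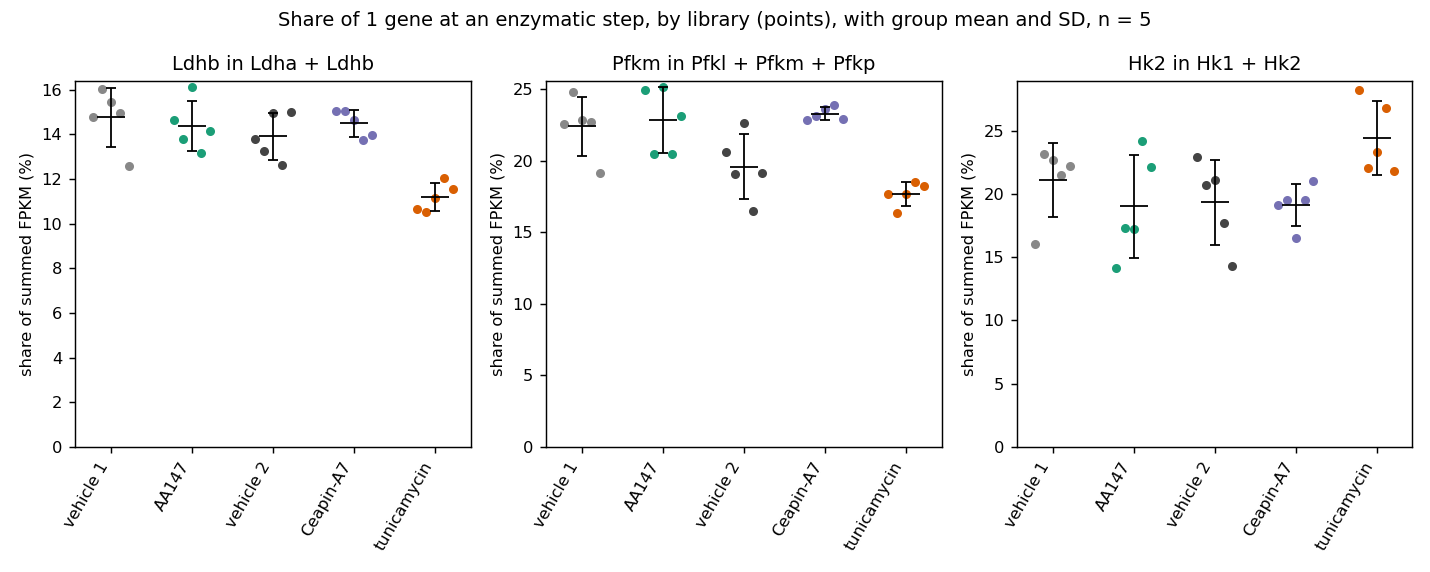
Share (percent, linear axis from 0) of Ldhb in Ldha plus Ldhb, of Pfkm in the 3 phosphofructokinases and of Hk2 in Hk1 plus Hk2; points are libraries, the bar and whiskers are the mean and SD of 5. All 5 tunicamycin libraries lie at or below 12.05% for Ldhb, under the lowest value of the other groups, 12.57%.

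Ceapin-A7 changed none of the 10 genes against vehicle set 2 by limma (0% of all genes were called higher and 0% lower). At an unadjusted p under 0.05, 720 of all genes were higher and 895 lower, and 1 of the 10 genes differed. That gene was Pfkp, whose 5 Ceapin-A7 libraries (115.89 to 131.97 FPKM) all lay below those of vehicle set 2 (134.95 to 177.31 FPKM), with a log2 difference of -0.28 (95% confidence interval -0.49 to -0.08, adjusted p = 0.304). Across the other 9 genes the differences ran from -0.23 (Pfkl) to 0.16 (Aldoc), and their intervals reached no lower than -0.48 and no higher than 0.40.

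AA147 changed none of the 10 genes against vehicle set 1 either (limma: 0% of all genes higher and 0% lower; 145 higher and 101 lower at an unadjusted p under 0.05, none of them among the 10). Pfkfb3 came nearest to a separation: 11.15, 11.66, 11.28, 12 and 11.71 FPKM with AA147 against 11.07, 10.85, 10.29, 10.07 and 10.71 FPKM with vehicle. These ranges did not overlap, and the log2 difference of 0.12 (95% confidence interval -0.05 to 0.28, adjusted p = 1) did not pass the test. The interval of Pfkfb3 rests on the spread over all groups. Its SD was 0.34 FPKM with AA147 and 0.41 in vehicle set 1, but 1.70 with tunicamycin and 1.63 in vehicle set 2. How many of all genes had ranges that did not overlap was not counted. Hk2 had the widest interval (-0.20, -0.52 to 0.13). The difference between the AA147 effect and the Ceapin-A7 effect, each against its own vehicle, was called for none of the 10 genes and 0% of all genes in either direction (563 and 319 of all genes at an unadjusted p under 0.05, none of the 10), and was largest for Pfkl, at 0.27 (interval -0.09 to 0.64).

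The 2 vehicle sets, which by their labels received the same treatment, differed widely. Over all genes 26.3% were higher in set 2 and 20.5% lower, so a call between the sets was common for any gene. Among the 10 genes, Hk1, Hk2, Pfkl and Pfkm were lower in vehicle set 2 (4 of 10, beside 20.5%), and none was higher (beside 26.3%). Pfkm was at 68.39, 63.78, 72.43, 64.97 and 71.34 FPKM in set 2 and at 86.16, 92.89, 88.16, 94.11 and 89.14 FPKM in set 1, with no overlap and a log2 difference of -0.40 ± 0.090 (SE; limma adjusted p = 0.000793). Hk1 was at 275.9 ± 44.4 against 357.7 ± 29.1 FPKM (SD, n = 5 each), a difference of -0.38 (limma adjusted p = 0.00168). Hk2 was at 66.2 ± 15.3 against 95.5 ± 13.4 FPKM (SD, n = 5 each), a difference of -0.54 (limma adjusted p = 0.00613). For Pfkl the difference was -0.38 (limma adjusted p = 0.0143), which passed no longer without library 5 of set 1 (-0.31, adjusted p = 0.0537). Ldha (-0.02, 95% confidence interval -0.26 to 0.22) and Pdk1 (0.02, interval -0.17 to 0.22) were not called, and nor were Ldhb, Pfkp, Aldoc and Pfkfb3, although Pfkfb3 passed as lower without library 5 of set 2 (-0.22, adjusted p = 0.0196). For each of the 4 called genes the gap between the sets was larger than any difference from their own vehicle with a compound, and each compound was read only within its own set. Ddx3y was at 1 FPKM or more in 5 of 5 libraries of set 1, and the 2 sets came with separate gene lists, so sex and table differ between the sets along with the set itself. With Ddx3y as a term in the fit all 4 genes were still called lower.

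Of 15 other glycolytic enzymes tested, 7 were lower in vehicle set 2 and none higher, beside 20.5% and 26.3% of all genes, and 8 were not called, with a median of -0.20 beside 0.03 over all genes. Eno1, an enolase, was at 1156 against 1835 FPKM (log2 difference -0.66, limma adjusted p = 1.19e-05), and Pkm, the pyruvate kinase, at 1392 against 1861 FPKM (-0.42, limma adjusted p = 0.000244). Eno3, Tpi1, Gpi1 and Aldoa had differences of -0.47, -0.38, -0.32 and -0.24, and Eno2, the seventh, -0.19. Of the 8 tested regulators of phosphofructokinase and pyruvate dehydrogenase, 3 were higher (Pdpr, Pdk3, Pdp1) and 3 lower (Pdk2, Pfkfb4, Pdp2). In the tricarboxylic acid cycle and malate-aspartate shuttle 10 of 21 were lower, Ogdh at -0.45 the furthest, and 2 higher. The rod markers Sag (-0.57) and Gnat1 (-0.47) were lower too, with 5 of 12 rod markers lower and 1 higher. Their part in the glycolytic difference was not tested.

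**Figure D4:**
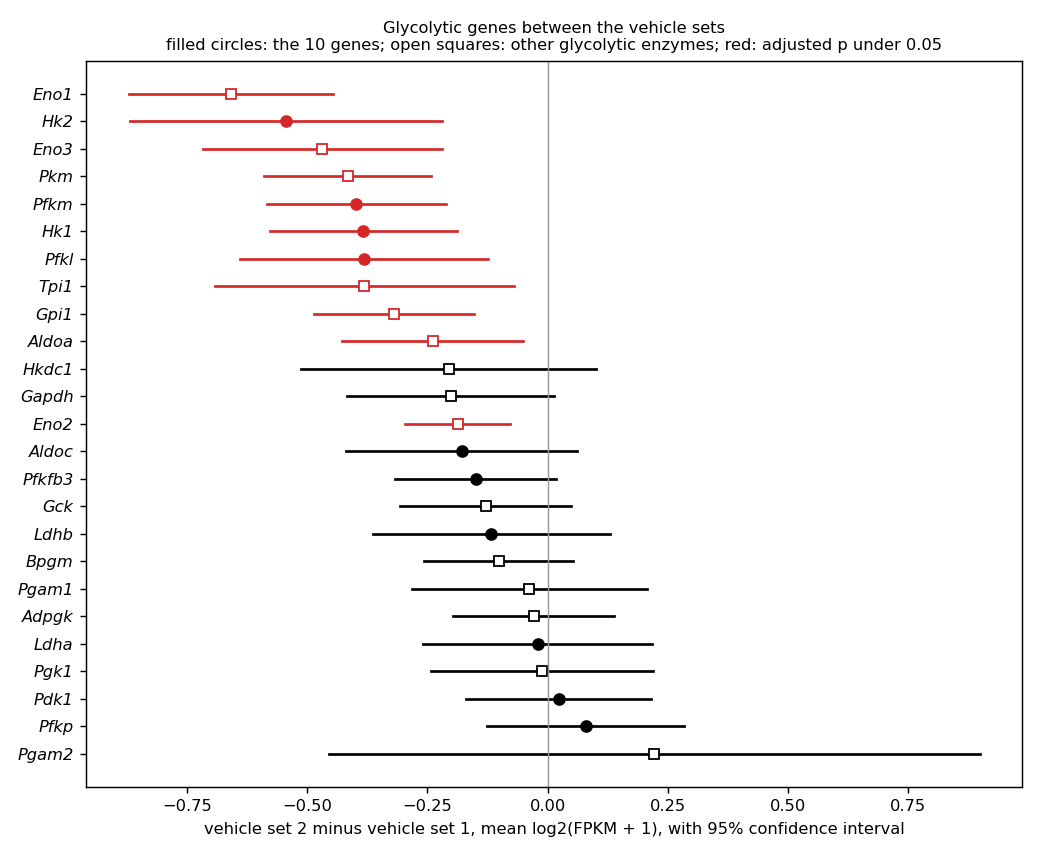
Difference between vehicle set 2 and vehicle set 1 in mean log2(FPKM + 1), with 95% confidence interval, for the 10 genes (filled circles) and 15 other glycolytic enzymes (open squares); red marks an adjusted p under 0.05. The 11 red genes all lie left of 0, from Eno1 at -0.66 to Eno2 at -0.19.

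None of those 15 other glycolytic enzymes passed the test with tunicamycin, against vehicle set 2 (median -0.04) or against Ceapin-A7 (median 0.02). The 8 other regulators of phosphofructokinase and pyruvate dehydrogenase, Pfkfb4 and Pdk3 among them, also gave no call in either comparison, so of the tested kinases that act on these 2 steps Pfkfb3 and Pdk1 were the called ones against vehicle. Whether they differ from their paralogs was not tested. In the transport list 1 of 9 fell against vehicle: Slc16a8, the lactate transporter of the pigment epithelium, at 0.30, 2.25, 1.36, 0.69 and 1.14 FPKM with tunicamycin and 2.79 to 5.87 FPKM in vehicle set 2 (log2 change -1.26 ± 0.31, SE; limma adjusted p = 0.0128). Other markers of that tissue fell beside it: 5 of 10 tested were lower, beside 2.81% of all genes. Rpe65 was lower by 1.78 and Ttr by 3.02 on the log2 scale, and the summed FPKM of the list was 31.2 to 153 against 137 to 305. In a bulk library fewer pigment epithelial cells and less RNA per cell cannot be told apart. Gys1, the glycogen synthase, rose by 0.39 (limma adjusted p = 0.00506) and was the only one of 11 glycogen and gluconeogenesis genes called against vehicle. No gene of the pentose phosphate pathway, of pyruvate entry into mitochondria or of the tricarboxylic acid cycle list was called against vehicle with tunicamycin.

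Against Ceapin-A7, 4.48% of all genes were lower with tunicamycin and 8.83% higher. In the tricarboxylic acid cycle and shuttle list 5 of 21 genes were lower and none higher (Mdh1, Sucla2, Sdha and Idh3a among them, between -0.21 and -0.14). The pyruvate carrier subunit Mpc2 (-0.28), the lactate and pyruvate transporter Slc16a1 (-0.21), the transaldolase Taldo1 (-0.25) and the glycogen phosphorylase Pygb (-0.33) were lower as well. Each of these 4 was the only lower gene of its list. Pck2, a mitochondrial enzyme that makes phosphoenolpyruvate, was higher by 0.72, with Gys1 (0.40) and Pgm2 (0.20), making 3 of 11 in the glycogen and gluconeogenesis list. Tissue markers differed beside these genes. Summed rod markers were 19032 to 23865 FPKM with tunicamycin and 25613 to 27629 FPKM with Ceapin-A7, with no overlap (2 of 12 lower, Nr2e3 and Nrl). Summed Müller glia markers were 1420 to 2503 and 2504 to 2804 FPKM, ranges that all but touched (1 of 12 lower, Dkk3). As mean log2(FPKM + 1), the Müller glia ranges overlapped (5.876 to 6.495 and 6.446 to 6.614), and the rod ranges did not (9.852 to 10.11 and 10.22 to 10.34). Their part in the differences of Pdk1, Ldhb and Pfkp was not tested. In Ceapin-A7 against vehicle set 2 and AA147 against vehicle set 1 no gene of any of these lists was called.

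Genes of the hypoxia list moved beside Pdk1. With tunicamycin 5 of 18 rose against vehicle set 2 and 1 fell, beside 5.89% and 2.81% of all genes. The median was 0.16, beside 0.01 over all genes. Adm, which encodes adrenomedullin, went from 0.46 ± 0.26 to 2.87 ± 0.60 FPKM (SD, n = 5 each), a log2 change of 1.41 (limma adjusted p = 3.21e-08), with each tunicamycin library (2.05 to 3.52) above each vehicle library (0.16 to 0.76). Vegfa, the vascular growth factor, stood at 108.23 to 139.47 FPKM against 54.90 to 94.12 FPKM, a log2 change of 0.75 (limma adjusted p = 5.66e-05). Ero1a (0.41), P4ha1 (0.32) and Kdm3a (0.21) were the others that rose. Ero1a and Vegfa are also known to respond to endoplasmic reticulum stress. Epas1, which encodes the factor HIF-2 alpha, fell by 0.47, while Hif1a was at 163.2 FPKM with tunicamycin and 163.4 FPKM with vehicle. Against Ceapin-A7, 6 of 18 rose and none fell, beside 8.83% and 4.48% of all genes, P4ha2 (0.38) being the sixth beside the same 5.

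Over all 25 libraries the genes whose log2 levels were most like those of Pdk1 were Ak4 (Pearson r = 0.929), Fam162a (0.856) and Ankzf1 (0.852). For Ldhb they were Gng7 (0.945) and Thra (0.944), and for Pfkfb3 Tnfsf9 (0.712), Wdr27 (0.697) and Brms1l (0.69). These coefficients are descriptions over libraries that share groups, tables and tissue make-up, and carry no p.

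Markers of other cells differed beside the 3 called genes. Summed over 14 lens markers, FPKM ran from 7.26 to 15764 with tunicamycin and from 10.39 to 5598 in vehicle set 2, although the lens had been removed, and no lens marker was called. Tunicamycin library 1, the lowest for Ldhb, had the most lens signal (3.77% of summed FPKM) and library 3, the highest, had the least (0.00167%). Library 1 also had the lowest summed rod (19032), cone (956.8), Müller glia (1420), ganglion cell (485.3) and endothelial (64.6) markers of its group. Its microglia and pigment epithelium sums were the lowest too, but its astrocyte and erythrocyte sums were not. Its library quality weight, 0.2055, was the lowest of the 25 libraries. Ceapin-A7 library 1, with 9953 FPKM of lens markers, had an Ldhb of 145.68 FPKM, the lowest of its group, where the others lay between 147.82 and 158.29 FPKM. Other libraries did not follow this order. In vehicle set 2, library 1 (5598 FPKM of lens markers) had an Ldhb of 137.23 FPKM, and library 4 (2148 FPKM) had the lowest, 126.00. Tunicamycin library 5 (6164 FPKM) had more Ldhb than library 4 (212.8 FPKM), at 122.13 against 116.19 FPKM. With the lens level as a term in the fit, 2 of the 10 genes were called higher and 1 lower with tunicamycin against vehicle, as without it. Summed rod markers were 19032 to 23865 FPKM with tunicamycin and 18551 to 27884 FPKM in vehicle set 2, with libraries 4 and 5 of that set the lowest (0 of 12 markers called). Müller glia markers summed to 1420 to 2503 against 1850 to 2770 FPKM (0 of 12 called). Endothelial markers summed to 64.6 to 96.1 against 106 to 133 FPKM, with no overlap. Of these 5 of 10 fell and 2 rose, beside 2.81% and 5.89% of all genes. No marker of these lists was at 0 in all libraries. The part of rods, glia, vessels and pigment epithelium in the changes of Pdk1, Pfkfb3 and Ldhb was not tested. Leaving out tunicamycin library 1 and vehicle libraries 4 and 5 together, a choice made after seeing these values, gave a log2 change of -0.25 for Ldhb (adjusted p = 0.0936). Tunicamycin library 1 holds the lowest tunicamycin value of Ldhb and vehicle library 4 the lowest vehicle value. The Ldhb result thus depends on that choice, and nothing is read from it. For Pfkfb3 these libraries hold the lowest tunicamycin value and the 2 highest vehicle values, and for Pdk1 the lowest tunicamycin value and the highest vehicle value, so leaving them out widens both differences by construction and nothing is read from it.

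**Figure D5:**
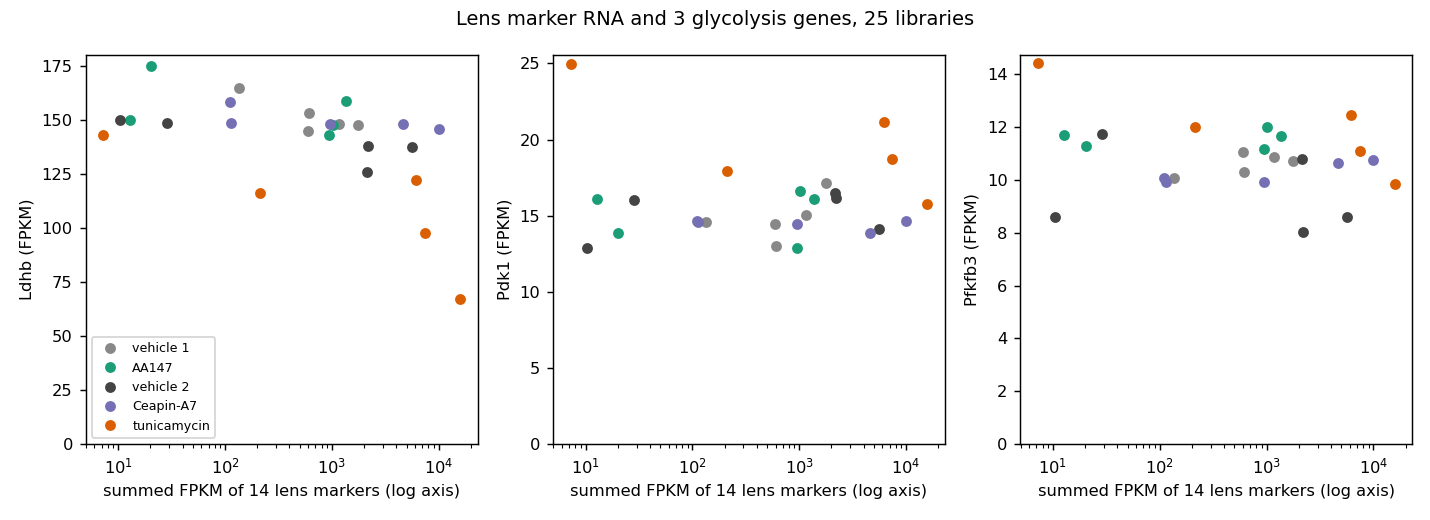
Ldhb, Pdk1 and Pfkfb3 in FPKM (vertical axes from 0) against the summed FPKM of 14 lens markers (horizontal, log axis) in 25 libraries coloured by group. The tunicamycin library with 15764 FPKM of lens markers has the lowest Ldhb, 66.99 FPKM, and the Ceapin-A7 library with 9953 FPKM has 145.68, the lowest of its group. The vehicle set 2 library with 5598 FPKM, the most of its group, has 137.23, which is not the lowest there.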

How the data were processed

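Stranded mRNA libraries of mouse retina (25) were sequenced on DNBSEQ, per the labels' protocols. The authors deposited FPKM values with 2 decimals in 5 tables, 1 per group. HISAT2 2.0.4, RSEM 1.2.18 and DESeq2 1.4.5 appear with the build GRCm39 in the submitters' processing notes, which give no roles. The tables use 2 gene lists (18676 and 19102 genes), and only the 18440 shared genes were used. Library depth is not given and whole reads could not be recovered, so no count test was run.

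Values were taken as log2(FPKM + 1), which understates changes of low genes. Genes at 1 FPKM in at least 5 libraries (13117) were fitted with limma 3.58.1 in R 4.3.3 over all 5 groups (20 residual degrees of freedom, trended variance, two-sided). Benjamini-Hochberg adjustment ran over all genes of a comparison, and an adjusted p under 0.05 is a call. The fit was first tested on simulated data. All 10 genes are named. Of the other lists, called genes are named by size of change, at most 6 per list and comparison. A few genes that this rule or the ranking by correlation selects are not reported here. The 10 genes and all lists were chosen with earlier results of these data known. Ddx3y at 1 FPKM marked sex. Alternatives were other pseudocounts, filters, scalings, covariates, weights, controls and leaving out each library.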

Additional observations from a re-analysis of the deposited data

Results flagged for a closer look

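Over the 50 sets of 5 libraries (10 genes in 5 groups), 3 held a library whose gap to its nearest neighbour was large for its group, where chance alone gives about 1 in 20. Hk1 in tunicamycin library 3 was 285.02 FPKM, while the other 4 libraries lay between 205.16 and 227.03 FPKM. Hk1 was called lower against vehicle set 2 when that library was left out. Ldhb in Ceapin-A7 library 2 was 158.29 FPKM, with the others from 145.68 to 148.41 FPKM. Pdk1 in Ceapin-A7 library 5 was 13.86 FPKM, with the others from 14.46 to 14.62 FPKM.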

How the results depend on the processing

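Of 1320 gene-level values of the 10 genes under an alternative, 1264 kept their side of the threshold, 31 lost a call, 25 gained one and none reversed a call. Among the 1264, 75 changed sign with no call in either analysis. For tunicamycin against vehicle set 2 (2 of the 10 higher, 1 lower, 773 and 368 of all genes), the fit on the compared groups only gave 0 and 0 of the 10 and 33 and 53 of all genes, and the sex term gave 1 and 0, and 295 and 154. The 1 lower gene became 0 with no filter, with the replicate block, without vehicle libraries 4 and 5, and without those and tunicamycin library 1. It became 4 against the mean of both vehicle sets, with 3474 higher and 2269 lower of all genes. The count of all lower genes was 580 with quantile normalization, 203 with library quality weights, 202 without vehicle libraries 4 and 5, and 153 without those and tunicamycin library 1. Leaving out single libraries gave 0 to 2 of the 10 higher and 0 to 3 lower, and 442 to 1188 higher and 169 to 797 lower of all genes, the ends of the last 2 ranges without tunicamycin library 1 and without library 3. For tunicamycin against Ceapin-A7 (2 and 1, 1158 and 588), the compared groups only gave 1 and 0, and 436 and 177, and lower counts among the 10 were 2 with median-ratio scaling, 3 with quality weights and 2 with the lens term. Single libraries left out gave 1 to 3 higher and 1 to 3 lower of the 10, and 678 to 1654 and 247 to 1220 of all genes. Against the mean of both vehicle sets, Ceapin-A7 gave 4 of the 10 lower (2430 higher and 1954 lower of all genes) and AA147 1 of the 10 higher (1377 and 1571). The sex term gave 1 higher gene for AA147. Single libraries left out gave 0 to 5 higher and 0 to 9 lower genes for Ceapin-A7, 0 to 1 higher for AA147, and 0 to 1 lower for the difference of their effects. The cause of these shifts was not tested, beyond the fewer libraries behind the spread where only 2 groups or fewer libraries were fitted.

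Replicate numbers do not pair the libraries by the labels, and same-numbered libraries did not deviate together (correlations from -0.434 to 0.47 over 4 pairs of groups, with at most 1 of 5 best with its own number). With the replicate block, 2 of the 10 genes were higher and 0 lower for tunicamycin against vehicle set 2, where Ldhb had an adjusted p of 0.0515, and the block changed no other call of the 10 genes. At the estimated median depth the fewest fragments behind a value of the 10 genes would be about 853 on the longest transcripts (Pfkfb3), 204 on the median ones (Pdk1) and 19.2 on the shortest (Hk1), and the estimate is rough, so no counting interval is given and the intervals in the text rest on the spread between libraries.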
